A study of Homo sapiens with 4 samples.

Results

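Homologous recombination, the Fanconi anaemia pathway and mismatch repair were represented by 42 genes, listed by their roles in repair: the BRCA1 complexes and recombination mediators, the enzymes that process joined DNA molecules, end resection, the Fanconi core complex and its substrates, the checkpoint kinases, mismatch repair and polymerase theta. These genes and the comparison lists below were chosen with earlier results of these data known, so their counts are not independent of the data. A probe set carrying the gene's name was found for 36 of the 42, among 17687 genes measured in all, while BRCA2, FANCD2, FANCA, RAD54B, ATRIP and RBBP8 were not analysed here. The cells were PC-3 and 22Rv1, established human prostate cancer lines, carrying a lentiviral pLKO.1 vector with a short hairpin RNA against TNFRSF13B (shTNFRSF13B, labelled shCD267), and their controls carried the empty pLKO.1 vector (labelled Ctrl). All 4 cell populations were stable and puromycin-selected, and both knockdown populations carried the same hairpin sequence. PC-3 cells, which lack p53, were grown in F-12 medium, and 22Rv1 cells, which express p53, in RPMI medium, so the medium and the line cannot be told apart. Total RNA of each population was hybridised to 1 Affymetrix oligonucleotide array. With 1 array per condition there was no replicate, no test across replicates was possible, and this number of arrays sets the precision of all values below.

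Homologous recombination repairs broken chromosomes by copying the sister chromatid: MRE11, RAD50 and NBN open the ends, EXO1 extends the resection, and BRCA1 with its partners prepares the end to pair with the matching strand. The Fanconi core complex, together with the conjugating enzyme UBE2T, marks FANCD2 and FANCI with ubiquitin where crosslinks block replication forks, and mismatch repair removes copying errors behind the fork. Several of these genes, though not all, are transcribed mainly in S and G2 phase, when a sister chromatid is present. Loss of function in several of the listed genes is a recognised feature of some prostate tumours.

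The log2 level of TNFRSF13B itself was 4.85 in PC-3 shTNFRSF13B cells and 5.25 in PC-3 empty vector cells, and 5.63 in 22Rv1 shTNFRSF13B cells against 6.08 in 22Rv1 empty vector cells. Its log2 ratio, shTNFRSF13B minus empty vector, was -0.40 in PC-3 and -0.45 in 22Rv1, or -2.20 in 22Rv1 after the quantile normalization described below. On the same arrays, in the same order, the 95th percentile of 348 olfactory receptor genes, taken as a measure of dim probes, was 4.98, 4.92, 5.305 and 3.91, so TNFRSF13B read close to the dim level except on the 22Rv1 empty vector array. The 22Rv1 empty vector array lay on a different scale, with a median log2 value of 5.33 over all probe sets, against medians of 6.93 to 7.01 on the other 3 arrays. The main 22Rv1 differences are therefore given on the deposited scale and on a quantile-normalized scale, on which all 4 arrays have one distribution of values, and where only 1 of them is given its scale is named. Of 6 PC-3 line markers 5 were at least 2-fold higher on both PC-3 arrays than on either 22Rv1 array, VIM among them (14.76 and 15.47 on the PC-3 arrays, 6.50 and 5.90 on the 22Rv1 arrays, shTNFRSF13B before empty vector), and KRT5 was not. Of 5 measured 22Rv1 line markers 2 were higher in 22Rv1 by this measure, STEAP2 and FOLH1 (3.96 and 3.42 in PC-3, 15.53 and 14.28 in 22Rv1). KLK3 and KLK2 did not separate the lines, and HOXB13 was higher in PC-3, at 12.40 and 12.23 against 9.89 and 7.72 in 22Rv1. Of 8 measured leukocyte and fibroblast markers, PTPRC read 3.62 to 5.12 and COL1A2 read 4.68 to 8.94. In PC-3 the log2 ratio was positive for 6 of the 8 and negative for 2. LYZ alone passed 2-fold there, at 1.47, where 5.76% of all genes were higher. In quantile-normalized 22Rv1 values it was positive for 4 and negative for 4. Of these, 1 was at least 2-fold higher (COL1A2, 2.50), beside 13.3% of all genes, and 1 lower, beside 15.5%. The part of these markers in the results was not tested.

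In PC-3 cells, repair genes were mostly lower with shTNFRSF13B. A log2 ratio, shTNFRSF13B minus empty vector, of -1 or below was called lower and of 1 or above higher, which is a difference of at least 2-fold. By this rule 15 of the 36 measured members were lower in PC-3, where 4.69% of all 17687 genes were lower, and 1 member (PMS2) was higher, where 5.76% of all genes were higher. The log2 ratio was negative for 34 of the 36, with a median of -0.81 over the members and -0.00 over all genes. Quantile normalization left these counts at 15 lower and 1 higher, beside 4.25% and 5.87% of all genes, with a member median of -0.75 and a median of 0.01 over all genes. The members at least 2-fold lower came from most of the steps of the pathway, with RAD51AP1, EXO1, UBE2T, BRCA1, FANCE and FANCI showing the largest differences. FANCE read under the dim level on the PC-3 shTNFRSF13B array, so its place in that order is not settled.

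In 22Rv1 cells the same genes were mostly higher with shTNFRSF13B. As deposited, 35 of the 36 members were at least 2-fold higher and 0 were at least 2-fold lower, but 58.3% of all genes were higher and 2.01% lower, and the median log2 ratio of all genes was itself 1.22. After quantile normalization 17 of the 36 members were at least 2-fold higher, where 13.3% of all genes were, and 0 were lower, where 15.5% of all genes were. On that scale 29 of 348 olfactory receptor genes were at least 2-fold lower and 26 higher in 22Rv1. In PC-3 it was 1 lower and 3 higher. The 2-fold call was thus less strict in 22Rv1, at least for dim probes, and 22Rv1 calls just past it are less secure. The log2 ratio was positive for 32 of the 36 on that scale, and its median was 0.97 over the members and -0.06 over all genes. The deposited median of the members was 2.48, so the size of every 22Rv1 difference depended on the scale, while a positive median held on both. In bulk cells a different share of cells expressing a gene and a different amount of its RNA per cell cannot be told apart, in either line.

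**Figure D1:**
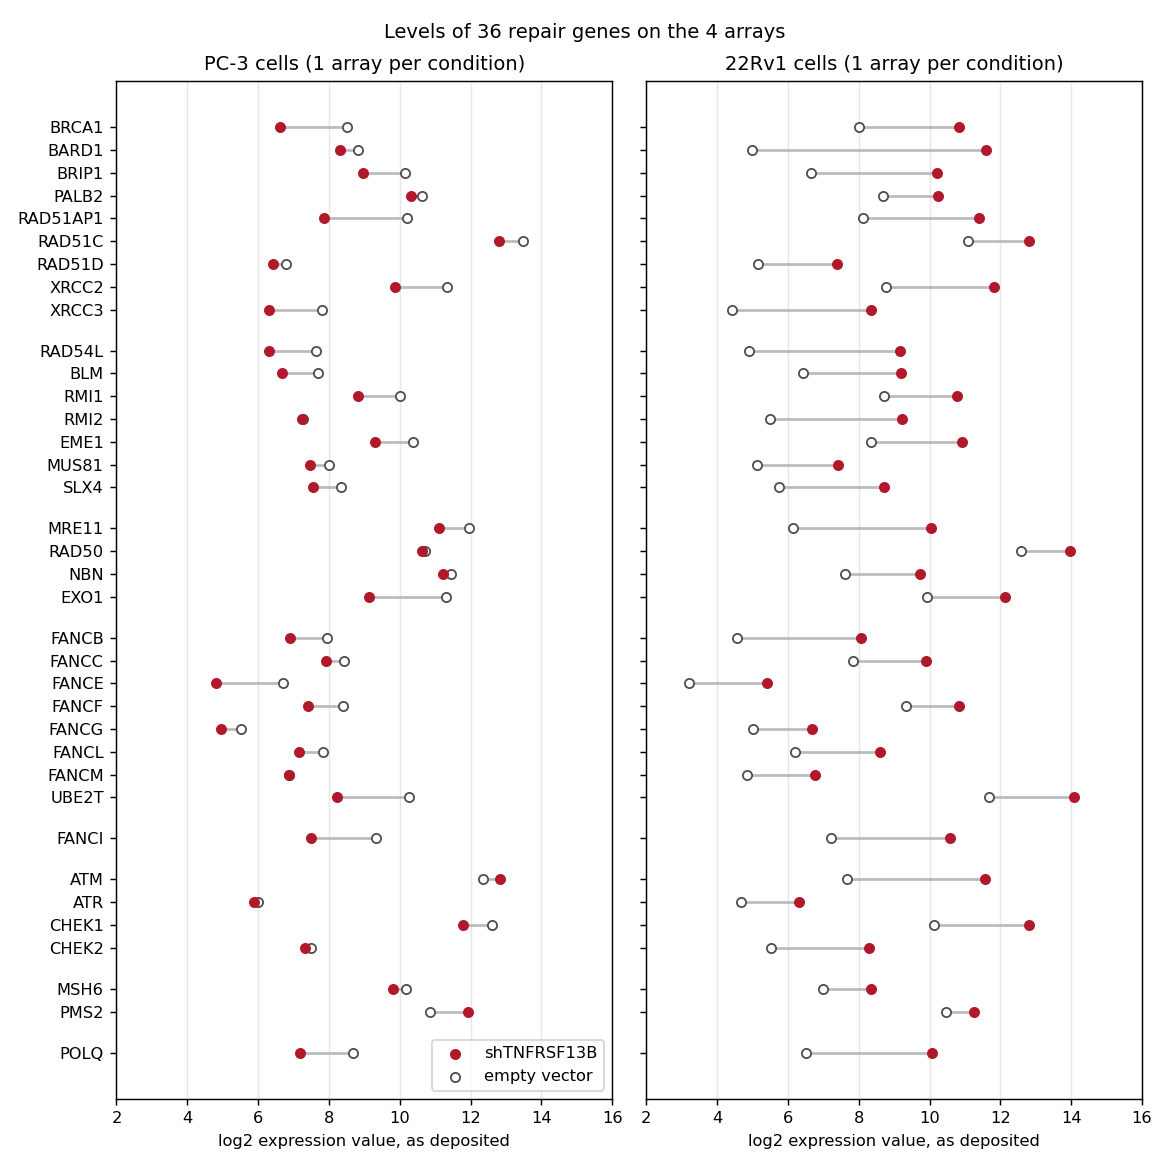
Deposited log2 expression values (horizontal axes) of the 36 measured repair genes, grouped by role down the page, in PC-3 cells (left) and 22Rv1 cells (right). Filled circles are the shTNFRSF13B array and open circles the empty vector array, 1 array each. The filled circle lies to the left of the open one for 34 of 36 genes in PC-3 and to the right for all 36 in 22Rv1, where the empty vector array has a lower median over all probe sets.

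The BRCA1 complexes and recombination mediators held the largest single difference in each line. BRCA1, the ubiquitin ligase that promotes resection, had log2 values of 6.62 in PC-3 shTNFRSF13B cells and 8.51 in PC-3 empty vector cells, a log2 ratio of -1.88 or 3.69-fold lower. In 22Rv1 it read 10.82 with shTNFRSF13B and 8.01 with the empty vector, for a deposited log2 ratio of 2.80 and a quantile-normalized one of 1.08. BRCA1 was thus lowest on the PC-3 shTNFRSF13B array and highest on the 22Rv1 shTNFRSF13B array. BARD1, its obligate partner in the ligase, was lower by less in PC-3 and short of 2-fold, at 8.30 with shTNFRSF13B and 8.82 with the empty vector, 1.44-fold lower. In 22Rv1 BARD1 had the largest difference of all 36 members, at 11.60 with shTNFRSF13B and 4.98 with the empty vector, which is 98.2-fold on the deposited and 34.8-fold on the quantile-normalized scale. The partners therefore differed in size in each line: BARD1 had a log2 ratio of -0.52 where BRCA1 had -1.88 in PC-3, and of 5.12 where BRCA1 had 1.08 in quantile-normalized 22Rv1 values.

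RAD51AP1, which stimulates strand invasion, had the largest PC-3 difference of the 36 members, at 7.87 with shTNFRSF13B and 10.19 with the empty vector, 5.01-fold lower. On the 22Rv1 arrays it read 11.39 with shTNFRSF13B and 8.12 with the empty vector, for log2 ratios of 3.28 (deposited) and 1.57 (quantile-normalized). BRIP1, the BRCA1-bound helicase, read 8.96 and 10.15 on the PC-3 shTNFRSF13B and empty vector arrays. It read 10.20 with shTNFRSF13B against 6.64 with the empty vector in 22Rv1, and its log2 ratio was -1.19 in PC-3 and 1.80 in quantile-normalized 22Rv1 values. Both genes were lower with shTNFRSF13B in one line and higher in the other.

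The mediators XRCC2, XRCC3, RAD51C and RAD51D, which act in shared complexes during recombination, did not behave alike. XRCC3 read 6.31 in PC-3 shTNFRSF13B cells and 7.82 in PC-3 empty vector cells, and 8.35 with shTNFRSF13B against 4.41 with the empty vector in 22Rv1, with log2 ratios of -1.504 in PC-3 and 3.93 (2.49 quantile-normalized) in 22Rv1. XRCC2 read 9.87 and 11.34 on the PC-3 arrays and 11.81 and 8.76 on the 22Rv1 arrays, shTNFRSF13B before empty vector, with log2 ratios of -1.46 in PC-3 and 3.05 (1.42 quantile-normalized) in 22Rv1. RAD51C, the partner of XRCC3, and RAD51D, the partner of XRCC2, stayed within 2-fold in PC-3, with log2 ratios of -0.69 and -0.36. After quantile normalization they also stayed within 2-fold in 22Rv1, at 0.15 for RAD51C and 0.61 for RAD51D. PALB2, the bridge between BRCA1 and BRCA2, was among the 5 members that differed least: it read 10.31 and 10.63 on the PC-3 shTNFRSF13B and empty vector arrays, and its 22Rv1 log2 ratio was 1.54 as deposited and -0.16 quantile-normalized, so its direction there depended on the scale. In this group 5 of 9 measured members read at least 2-fold lower in PC-3, beside 4.69% of all genes. In quantile-normalized 22Rv1 values 6 of 9 read at least 2-fold higher, beside 13.3% of all genes.

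Among the motors and enzymes that finish recombination, 4 of 7 measured members read at least 2-fold lower in PC-3, beside 4.69% of all genes. In quantile-normalized 22Rv1 values 3 of 7 read at least 2-fold higher, beside 13.3% of all genes. RAD54L, the motor that drives strand exchange, read 6.32 with shTNFRSF13B and 7.64 with the empty vector in PC-3, for a log2 ratio of -1.32. In 22Rv1 it read 9.17 with shTNFRSF13B and 4.90 with the empty vector, 19.4-fold higher as deposited and 6.61-fold quantile-normalized. It had the widest gap between the lines of the 10 members called in opposite directions on both scales.

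The BLM complex, which separates joined DNA molecules without crossing over, differed by subunit. The helicase BLM had log2 values of 6.67 and 7.69 in PC-3 and 9.19 and 6.43 in 22Rv1, shTNFRSF13B before empty vector, and its log2 ratios were -1.02 in PC-3 and 2.76 (0.997 quantile-normalized, just under the threshold) in 22Rv1. RMI1, a scaffold of the complex, was lower in PC-3, at 8.82 with shTNFRSF13B and 10.01 with the empty vector, and its 22Rv1 log2 ratio was 2.06 as deposited and 0.37 quantile-normalized. RMI2, the small subunit bound to RMI1, showed the reverse emphasis, at 7.24 and 7.28 on the PC-3 shTNFRSF13B and empty vector arrays. In 22Rv1 RMI2 read 9.21 with shTNFRSF13B and 5.50 with the empty vector, 13.0-fold as deposited and 4.13-fold quantile-normalized. On the quantile-normalized scale RMI1 thus passed 2-fold in PC-3 alone and RMI2 in 22Rv1 alone, while as deposited both passed it in 22Rv1.

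Of the structure-cutting nucleases and their scaffold, measured as EME1, MUS81 and SLX4, 1 was at least 2-fold lower in PC-3, beside 4.69% of all genes. Another was at least 2-fold higher in quantile-normalized 22Rv1 values, beside 13.3% of all genes. With so few genes, neither count stands apart from its share. EME1, the partner of MUS81, read 9.31 with shTNFRSF13B and 10.37 with the empty vector in PC-3, for a log2 ratio of -1.07, and its 22Rv1 log2 ratio was 2.54 as deposited and 0.83 quantile-normalized. MUS81, the catalytic subunit, had log2 ratios of -0.52 in PC-3 and 0.68 in quantile-normalized 22Rv1 values. SLX4, the scaffold for several nucleases, read 7.56 and 8.33 on the PC-3 shTNFRSF13B and empty vector arrays and 8.71 and 5.75 on those of 22Rv1, with a 22Rv1 log2 ratio of 2.96 as deposited and 1.25 quantile-normalized.

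End resection differed by gene, with EXO1 apart in PC-3 and MRE11 apart in quantile-normalized 22Rv1 values. EXO1, the long-range exonuclease that also serves mismatch repair, read 9.13 with shTNFRSF13B and 11.32 with the empty vector in PC-3, 4.55-fold lower. In 22Rv1 it read 12.13 with shTNFRSF13B and 9.92 with the empty vector, for log2 ratios of 2.21 (deposited) and 0.60 (quantile-normalized). MRE11, the nuclease that starts resection, stayed within 2-fold in PC-3, at 11.11 with shTNFRSF13B and 11.95 with the empty vector. In 22Rv1 MRE11 read 10.04 with shTNFRSF13B and 6.13 with the empty vector, 15-fold as deposited and 4.53-fold quantile-normalized. Its complex partners did not share that difference. RAD50, the structural subunit, read 10.64 and 10.72 on the PC-3 shTNFRSF13B and empty vector arrays and 13.96 and 12.58 on those of 22Rv1, where its quantile-normalized log2 ratio was 0.08. NBN, the subunit that binds ATM, read 11.21 and 11.44 in PC-3 and 9.74 and 7.60 in 22Rv1 in the same order, with a quantile-normalized 22Rv1 log2 ratio of 0.36. RAD50 and NBN were among the 5 members that differed least once the 22Rv1 arrays were on one scale.

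In the Fanconi core complex and its conjugating enzyme, 3 of 8 measured members read at least 2-fold lower in PC-3, beside 4.69% of all genes. In quantile-normalized 22Rv1 values 2 of 8 read at least 2-fold higher, beside 13.3% of all genes. With so few genes, this 22Rv1 count does not stand apart from that share. UBE2T, the ubiquitin-conjugating enzyme of the pathway, read 8.22 with shTNFRSF13B and 10.27 with the empty vector in PC-3, 4.15-fold lower, and 14.09 with shTNFRSF13B against 11.68 with the empty vector in 22Rv1, where its log2 ratio was 2.41 as deposited and 0.94 quantile-normalized. Its ligase partner FANCL had log2 ratios of -0.67 in PC-3 and 0.61 in quantile-normalized 22Rv1 values, from readings of 7.16 and 7.83 in PC-3 and 8.58 and 6.21 in 22Rv1 (shTNFRSF13B before empty vector). FANCB, a core subunit that binds FANCL, read 6.91 with shTNFRSF13B and 7.95 with the empty vector in PC-3, and 8.07 against 4.56 in 22Rv1 in that order. The log2 ratio of FANCB was -1.04 in PC-3, close to the threshold, and 3.51 (2.02 quantile-normalized) in 22Rv1.

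FANCE, which links the core complex to FANCD2, read 4.82 with shTNFRSF13B and 6.70 with the empty vector in PC-3, 3.69-fold lower, and 5.40 with shTNFRSF13B against 3.20 with the empty vector in 22Rv1. The PC-3 shTNFRSF13B and 22Rv1 empty vector readings of FANCE, and the 4.95 of FANCG on the PC-3 shTNFRSF13B array, were the only member values under the olfactory receptor percentile of their own array, so both ratios of FANCE rest on a dim reading. FANCF, an adaptor of the core complex, had a PC-3 log2 ratio of -0.99, just short of 2-fold, from 7.40 with shTNFRSF13B and 8.39 with the empty vector. In 22Rv1 FANCF read 10.82 with shTNFRSF13B and 9.33 with the empty vector, and its log2 ratio of 1.497 as deposited became -0.15 on the quantile-normalized scale. FANCM, the motor that anchors the complex to DNA and the last of the 5 members that differed least, was nearly level in PC-3, at 6.86 with shTNFRSF13B and 6.87 with the empty vector, and read 6.75 and 4.85 in 22Rv1 in that order, 0.36 as a quantile-normalized log2 ratio. FANCC and FANCG had PC-3 log2 ratios of -0.51 and -0.58, and quantile-normalized 22Rv1 log2 ratios of 0.31 and 0.10.

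FANCI, the partner of FANCD2 and a substrate of UBE2T and FANCL, read 7.50 with shTNFRSF13B and 9.32 with the empty vector in PC-3, 3.53-fold lower. In 22Rv1 it read 10.56 with shTNFRSF13B and 7.22 with the empty vector, for log2 ratios of 3.34 (deposited) and 1.59 (quantile-normalized). POLQ, the polymerase of an error-prone end-joining route that uses resected ends, read 7.17 and 8.67 on the PC-3 shTNFRSF13B and empty vector arrays and 10.07 and 6.51 on those of 22Rv1. POLQ was 2.82-fold lower in PC-3 and 3.51-fold higher in quantile-normalized 22Rv1 values. Both genes were called in opposite directions in the lines.

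Among the groups, the checkpoint kinases had the median log2 ratio closest to 0 in PC-3, at -0.14, over values from -0.84 to 0.48. There 0 of 4 measured members passed 2-fold, where 4.69% of all genes were lower and 5.76% higher. With so few genes, this PC-3 count does not stand apart from those shares. In quantile-normalized 22Rv1 values 3 of 4 were at least 2-fold higher, beside 13.3% of all genes. ATM, the kinase activated at broken ends, was the only member besides PMS2 that read higher with shTNFRSF13B in PC-3, at 12.82 with shTNFRSF13B and 12.34 with the empty vector. In 22Rv1 ATM read 11.55 with shTNFRSF13B and 7.66 with the empty vector, 14.8-fold as deposited and 4.50-fold quantile-normalized. ATM and MRE11, which acts upstream of it, both had their lowest reading on the 22Rv1 empty vector array. ATR, the kinase of stalled forks, was among the 5 members that differed least, at 5.89 and 5.99 on the PC-3 shTNFRSF13B and empty vector arrays and 6.32 and 4.67 on those of 22Rv1, with a quantile-normalized 22Rv1 log2 ratio of 0.15. CHEK1, the effector of ATR, read 11.78 and 12.62 in PC-3 and 12.81 and 10.13 in 22Rv1, shTNFRSF13B before empty vector, with log2 ratios of -0.84 in PC-3 and 1.05 in quantile-normalized 22Rv1 values. CHEK2, the effector of ATM, had log2 ratios of -0.18 in PC-3 and 1.14 in quantile-normalized 22Rv1 values, from 7.32 and 7.51 in PC-3 and 8.29 and 5.51 in 22Rv1.

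Mismatch repair was represented by 2 measured genes, of which PMS2 ran against the rest of the list in PC-3. PMS2, an endonuclease subunit of mismatch repair, read 11.93 with shTNFRSF13B and 10.85 with the empty vector in PC-3, 2.12-fold higher. In 22Rv1 PMS2 read 11.25 with shTNFRSF13B and 10.47 with the empty vector, for a log2 ratio of 0.78 as deposited, the smallest of the 36, and -0.80 quantile-normalized, so its direction depended on the scale. Near-identical PMS2 pseudogene copies exist in the human genome, and the array's probe set may read them as well. MSH6, which recognises mismatches, stayed within 2-fold in PC-3, at 9.81 with shTNFRSF13B and 10.16 with the empty vector. In 22Rv1 it read 8.36 with shTNFRSF13B against 7.001 with the empty vector, with a log2 ratio of 1.36 on the deposited and -0.43 on the quantile-normalized scale. PMS2, MSH6, PALB2 and FANCF were the 4 members whose quantile-normalized 22Rv1 log2 ratio was negative.

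**Figure D2:**
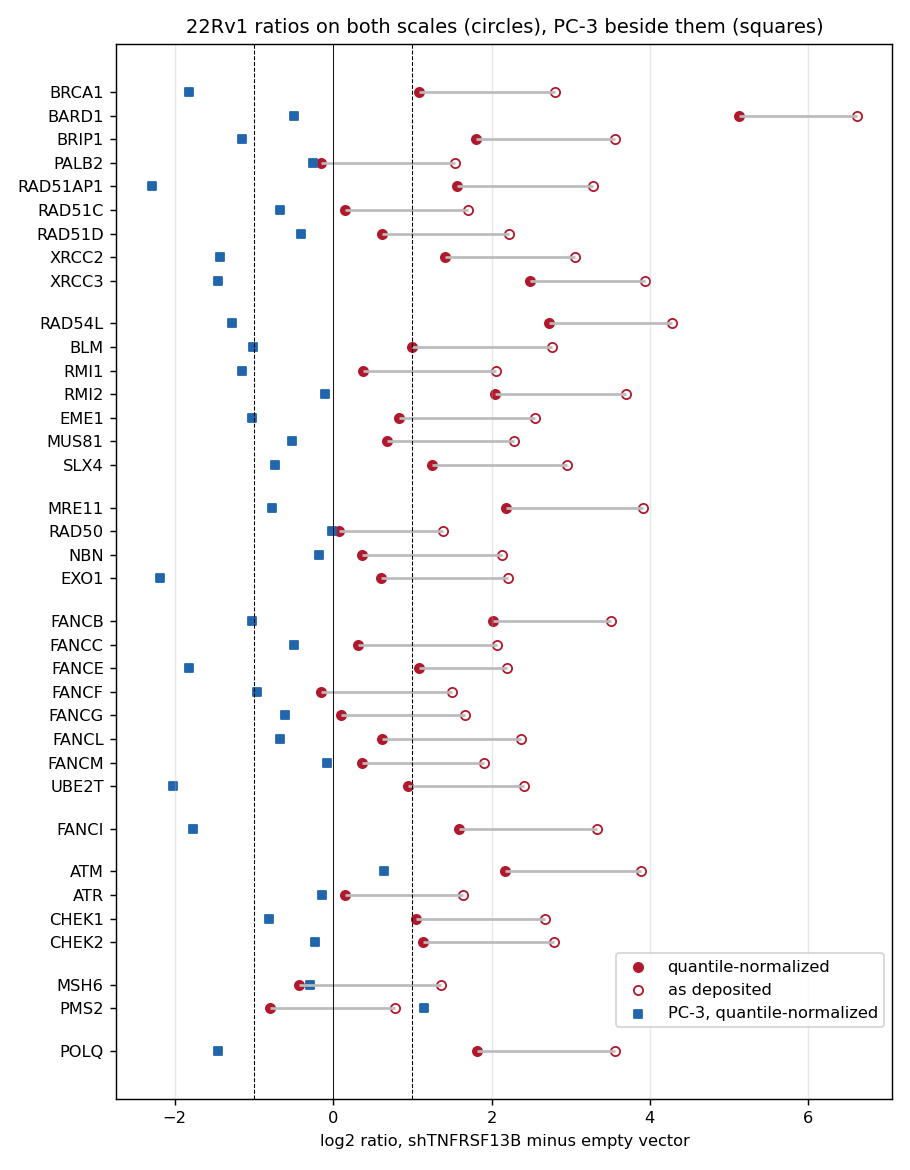
Log2 ratios, shTNFRSF13B minus empty vector (horizontal axis), of the 36 measured repair genes by role. Open circles are the deposited and filled circles the quantile-normalized 22Rv1 ratios, squares the quantile-normalized PC-3 ratios, each from 1 array per condition, and dashed lines mark 2-fold. Quantile normalization shifts every 22Rv1 ratio to the left, leaving 17 at or beyond the right dashed line, with BARD1 farthest at 5.12.

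Direction was then compared between the lines, whose arrays are separate. As deposited, 15 of 36 members combined a PC-3 value at least 2-fold lower with a 22Rv1 value at least 2-fold higher, as did 3.56% of all genes. After quantile normalization 10 members did, beside 1.63% of all genes: BRCA1, BRIP1, RAD51AP1, XRCC2, XRCC3, RAD54L, FANCB, FANCE, FANCI and POLQ. A negative PC-3 log2 ratio together with a positive 22Rv1 log2 ratio was found for 31 of 36 members on the quantile-normalized scale, beside 25.3% of all genes. No member was past 2-fold in the same direction in both lines on that scale. The members differed in where the larger change lay: EXO1 and UBE2T were past 4-fold in PC-3 and under 2-fold in quantile-normalized 22Rv1 values, whereas BARD1, RMI2, MRE11 and ATM were past 4-fold in quantile-normalized 22Rv1 values and under 2-fold in PC-3. UBE2T and RMI2 lay near these limits. Under loess scaling UBE2T had log2 ratios of -1.98 in PC-3 and 1.26 in 22Rv1, and RMI2 had 1.94 in 22Rv1.

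**Figure D3:**
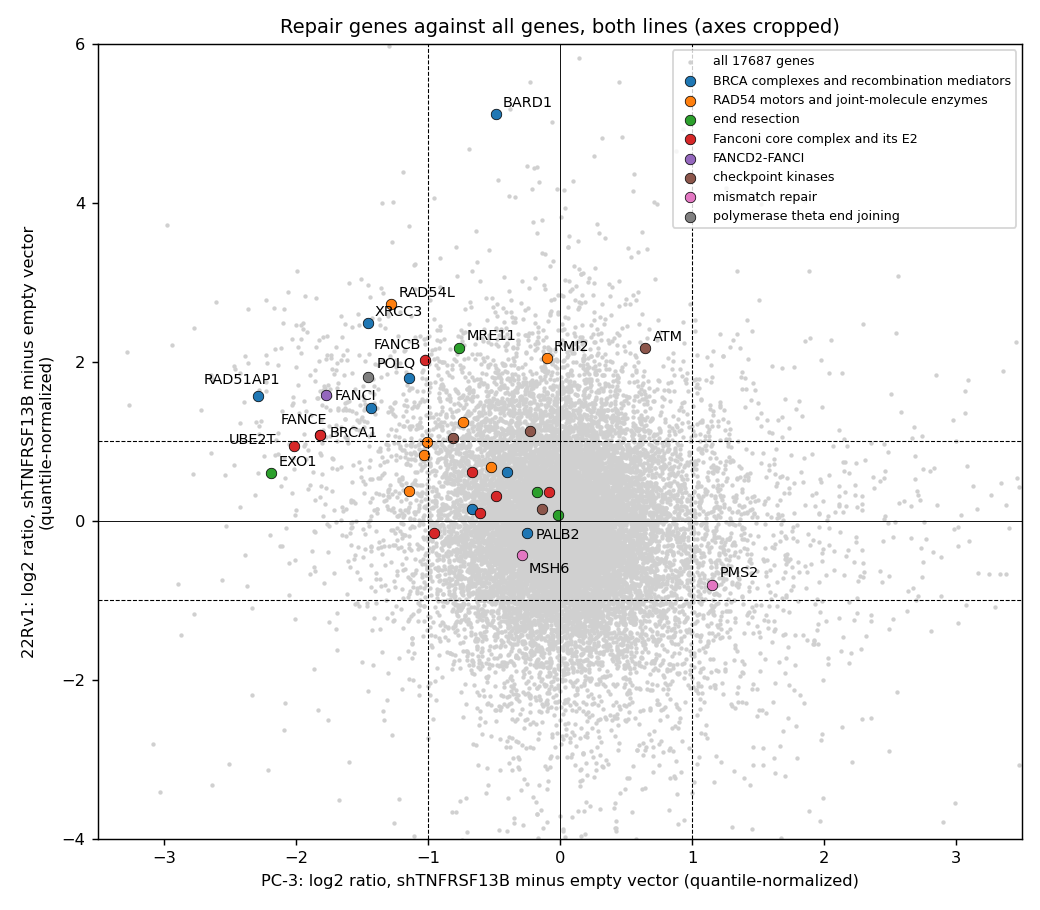
Quantile-normalized log2 ratios, shTNFRSF13B minus empty vector, in PC-3 (horizontal axis) and 22Rv1 (vertical axis), with 1 array per condition. Grey points are the 17687 genes measured (axes cropped), coloured points the 36 repair genes by role, and dashed lines mark 2-fold. In the upper left corner, past both dashed lines, lie 10 of the 36 repair genes, and PMS2 lies alone among them past 2-fold on the right.

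The order of the 4 arrays was read for each gene after quantile normalization. The 22Rv1 shTNFRSF13B array was the highest for 25 of 36 members (22.4% of all genes), the PC-3 empty vector array for 8 (20.3%), the 22Rv1 empty vector array for 2 (34.9%) and the PC-3 shTNFRSF13B array for 1 (22.4%). The lowest was the PC-3 shTNFRSF13B array for 19 members (23.4% of all genes), the 22Rv1 empty vector array for 14 (29.8%), the 22Rv1 shTNFRSF13B array for 2 (23.9%) and the PC-3 empty vector array for 1 (23.0%). These comparisons share their arrays with the ratios above. Between the shTNFRSF13B cells, PC-3 was at least 2-fold higher than 22Rv1 for 4 members, beside 16.5% of all genes, and at least 2-fold lower for 24, beside 16.5% of all genes, with a member median log2 difference, PC-3 minus 22Rv1, of -1.56. Between the empty vector cells, PC-3 was at least 2-fold higher for 11 members, beside 19.6% of all genes, and at least 2-fold lower for 6, beside 21.5% of all genes, with a member median of 0.26. Counting both directions, 28 of 36 members differed at least 2-fold between the lines with shTNFRSF13B, beside 33.0% of all genes, and 17 of 36 with the empty vector, beside 41.1% of all genes. The median near 0 with the empty vector came from members on both sides, such as MRE11 at 3.95 and UBE2T at -3.01.

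Single genes differed between the lines with either construct. RAD50 was lower in PC-3 than in 22Rv1 by a log2 difference of -3.38 between the shTNFRSF13B cells and -3.28 between the empty vector cells. UBE2T and FANCF were lower in PC-3 in the same way, by -5.98 and -3.52 with shTNFRSF13B and by -3.01 and -2.72 with the empty vector. MSH6 was higher in PC-3, by 1.40 with shTNFRSF13B and 1.26 with the empty vector, and NBN by 1.43 and 1.97. BARD1 turned round, at -3.43 with shTNFRSF13B and 2.18 with the empty vector.

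Other genes of the same pathways, 53 of a list of 58, had smaller medians than the 36 members. The comparison lists overlap. PCNA is also among the S phase and mitosis markers, and ERCC1 and ERCC4 are also in nucleotide excision repair. APLF is in both end joining and base excision repair. In PC-3, 14 of 53 were at least 2-fold lower and 0 higher, beside 4.69% and 5.76% of all genes, with a median log2 ratio of -0.40. In quantile-normalized 22Rv1 values 17 were at least 2-fold higher and 3 lower, beside 13.3% and 15.5% of all genes, with a median of 0.44. PSMC3IP, an accessory factor of strand exchange, had log2 ratios of -2.08 in PC-3 and 4.03 (2.29 quantile-normalized) in 22Rv1. PARPBP, an inhibitor of recombination, and TIMELESS, a fork-protection protein, had PC-3 log2 ratios of -1.82 and -1.67. ABRAXAS1, the scaffold of a BRCA1 complex that edits ubiquitin, was among the 3 lower genes, with a quantile-normalized 22Rv1 log2 ratio of -1.77. As deposited its 22Rv1 log2 ratio was -0.01, and 0 of the 53 were at least 2-fold lower.

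Other repair pathways were set beside these. Of all genes, 4.69% passed 2-fold downwards and 5.76% upwards in PC-3. The matching shares in quantile-normalized 22Rv1 values were 15.5% downwards and 13.3% upwards. With so few genes per list, the end joining and base excision counts below do not stand apart from these shares. The nucleotide excision counts were not tested against them. For non-homologous end joining, which rejoins ends without a template, 2 of 15 measured genes were past 2-fold downwards in PC-3 and 1 (LIG4, 1.04) upwards, and 3 were at least 2-fold higher in quantile-normalized 22Rv1 values. PRKDC, its protein kinase, had log2 ratios of -1.85 in PC-3 and 1.70 in quantile-normalized 22Rv1 values. In base excision and single-strand break repair 1 of 22 genes, the glycosylase NEIL3, was at least 2-fold lower in PC-3, at -1.64, and 4 were at least 2-fold higher in quantile-normalized 22Rv1 values, with OGG1 at 2.40. In nucleotide excision repair 0 of 21 genes passed 2-fold in PC-3 in either direction. There the quantile-normalized 22Rv1 values had 1 gene at least 2-fold higher, CETN2 at 1.73, and 6 at least 2-fold lower, among them the damage sensors DDB2 at -2.30 and XPC at -2.03. These calls depended on the scale. As deposited, 0 of the 21 were at least 2-fold lower in 22Rv1 and 12 higher, beside 2.01% and 58.3% of all genes. DDB2 was then at -0.53 and XPC at -0.37. The median quantile-normalized 22Rv1 log2 ratio was 0.31 for end joining, 0.12 for base excision repair and -0.49 for nucleotide excision repair, beside 0.97 for the 36 members.

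Markers of S phase and mitosis lay in the same directions as the repair genes, with larger medians. All 20 were measured, and 17 read at least 2-fold lower in PC-3 with 0 higher, beside 4.69% and 5.76% of all genes, at a median log2 ratio of -1.54. In quantile-normalized 22Rv1 values 16 of 20 were at least 2-fold higher with 0 lower, beside 13.3% and 15.5% of all genes, at a median of 1.71. The log2 ratio was negative for all 20 in PC-3 and positive for all 20 in 22Rv1 on both scales. The median deposited log2 level of the 20 was 10.00 in PC-3 shTNFRSF13B cells, 11.29 in PC-3 empty vector cells, 12.86 in 22Rv1 shTNFRSF13B cells and 9.85 in 22Rv1 empty vector cells. TOP2A, the topoisomerase of dividing cells, had a PC-3 log2 ratio of -2.65, and TYMS, which makes thymidylate for DNA synthesis, a 22Rv1 log2 ratio of 4.48 (2.83 quantile-normalized). The part of the share of cells in S phase and mitosis in the repair gene values was not tested.

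**Figure D4:**
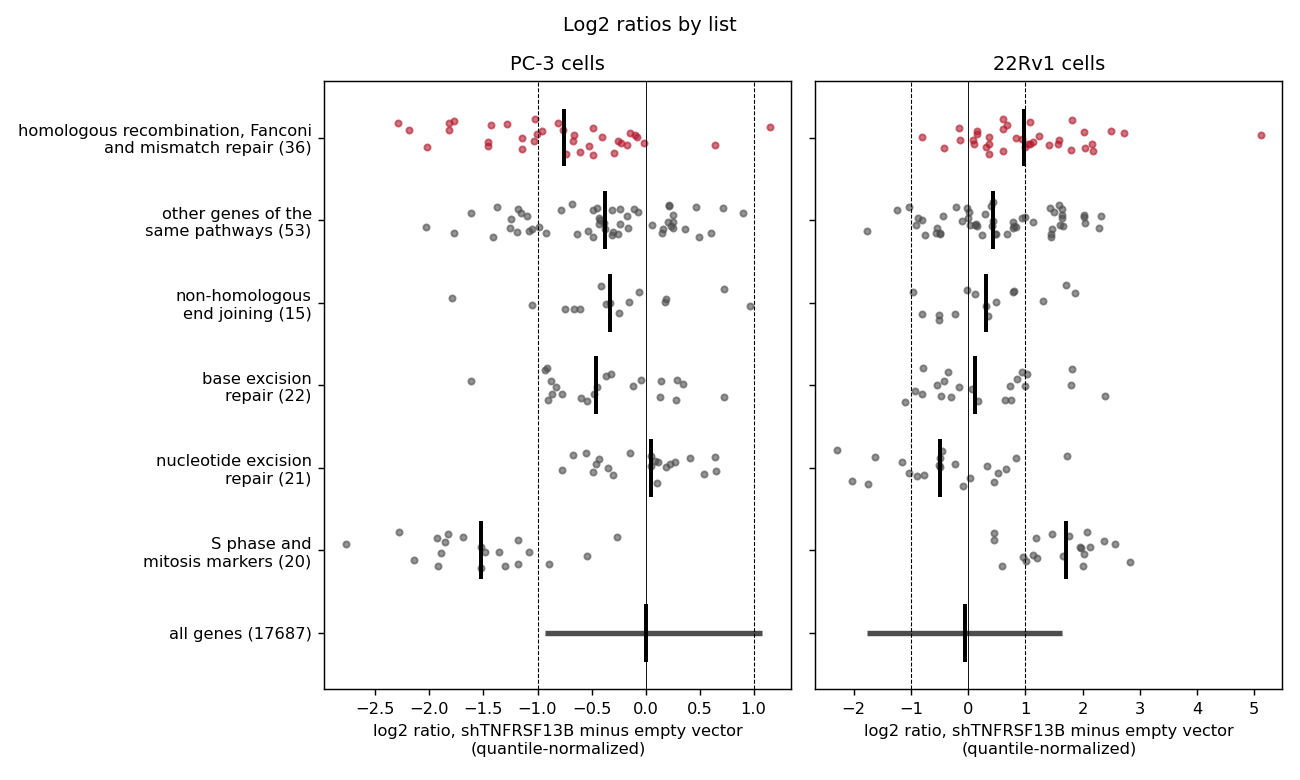
Quantile-normalized log2 ratios, shTNFRSF13B minus empty vector (horizontal axes), in PC-3 (left) and 22Rv1 (right), 1 point per gene and 1 array per condition. Thick vertical bars are medians, the horizontal bar for all genes spans the 5th to the 95th percentile of 17687 genes, and dashed lines mark 2-fold. Some genes, such as PCNA, appear in several lists. Repair genes have medians of -0.75 in PC-3 and 0.97 in 22Rv1, between those of the other repair lists and those of the S phase and mitosis markers (-1.52 and 1.71).

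Promoter sequence was examined because many members moved together. RefSeq promoters on GRCh38.p14, from 250 bases before to 50 after the first listed start of each gene, were found for 33 of the 36 members and for 14250 measured genes in all. Searched on both strands were an E2F motif (TTTCCCGC, TTTCGCGC, TTTGCCGC or TTTGGCGC), the CHR of late cell cycle genes (TTTGAA or TTCGAA) and the CCAAT box (CCAAT), and no spelling of one contains a spelling of another. The E2F motif was in 5 of 33 member promoters (15.2%) and 4.44% of all, the CHR in 5 (15.2%) and 13.4%, and the CCAAT box in 17 (51.5%) and 36.4%. With 2 of the E2F spellings, TTTCCCGC and TTTGGCGC, the shares were 3 of 33 (9.09%) and 3.07%. By response, the E2F motif was in 2 of 14 promoters of members at least 2-fold lower in PC-3 and in 3 of 19 of the others. Only the first listed start of each gene was searched, so promoters at any other start were not scored. The 5 genes were XRCC2, EXO1, FANCC, MSH6 and PMS2, whose PC-3 log2 ratios ran between -2.19 (EXO1) and 1.09 (PMS2). A match is a run of letters, not a shown binding site.

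Printed 5′ to 3′ on the gene's strand, with the E2F motif in capitals, are the promoters of EXO1 (chr1:241847954-241848253, plus strand) and XRCC2 (chr7:152676092-152676391, minus strand), at least 2-fold lower in PC-3, of PMS2 (chr7:6009057-6009356, minus strand), the member at least 2-fold higher in PC-3, and of RAD51AP1 (chr12:4538640-4538939, plus strand), the member with the largest PC-3 difference, whose window held none of the 4 spellings. The motif begins 4 bases after the start in EXO1, 21 after it in XRCC2, where it lies on the other strand, and 43 before it in PMS2.
EXO1: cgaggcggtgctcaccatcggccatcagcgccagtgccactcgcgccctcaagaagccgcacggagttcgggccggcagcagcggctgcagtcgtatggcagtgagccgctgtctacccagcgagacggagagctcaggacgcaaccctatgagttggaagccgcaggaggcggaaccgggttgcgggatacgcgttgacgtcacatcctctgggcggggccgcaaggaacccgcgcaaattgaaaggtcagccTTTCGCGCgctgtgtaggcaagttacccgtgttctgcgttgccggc
XRCC2: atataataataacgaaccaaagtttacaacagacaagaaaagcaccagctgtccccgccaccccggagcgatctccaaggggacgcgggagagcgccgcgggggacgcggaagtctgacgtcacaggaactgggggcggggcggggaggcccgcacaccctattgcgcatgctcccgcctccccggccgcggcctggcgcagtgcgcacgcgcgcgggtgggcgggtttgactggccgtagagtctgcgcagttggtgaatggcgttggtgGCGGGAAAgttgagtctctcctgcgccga
PMS2: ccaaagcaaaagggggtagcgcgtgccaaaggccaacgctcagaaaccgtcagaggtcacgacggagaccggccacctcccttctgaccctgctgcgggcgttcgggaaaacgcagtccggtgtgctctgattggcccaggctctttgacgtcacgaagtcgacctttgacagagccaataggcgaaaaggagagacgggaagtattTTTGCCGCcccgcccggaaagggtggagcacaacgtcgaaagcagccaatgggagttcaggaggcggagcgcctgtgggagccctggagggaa
RAD51AP1: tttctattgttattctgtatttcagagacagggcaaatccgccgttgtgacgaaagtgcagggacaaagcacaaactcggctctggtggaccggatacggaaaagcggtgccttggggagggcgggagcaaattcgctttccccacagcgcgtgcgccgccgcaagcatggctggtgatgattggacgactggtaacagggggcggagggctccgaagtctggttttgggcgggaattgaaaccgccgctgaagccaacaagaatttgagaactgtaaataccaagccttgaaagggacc
The genes with a printed motif had PC-3 log2 ratios of -2.19 (EXO1), -1.46 (XRCC2) and 1.09 (PMS2). RAD51AP1, with none of the 4 spellings in its window, had -2.33. Near matches to the 4 spellings were not counted, in RAD51AP1 or any other gene, and a relation of the motif to the response was not tested.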

How the data were processed

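Expression was measured on 4 arrays, 1 each of PC-3 and 22Rv1 cells with shTNFRSF13B or the empty vector, grouped by the sample labels. The authors deposited log2 expression values for 24351 probe sets; RMA, Partek and Affymetrix Expression Console are named in the submitters' processing notes, with versions and genome build not given in the sources used here. RMA subtracts background and summarises probes, which compresses low readings, and the unequal distributions show that the 4 arrays were not quantile-normalized together. The platform annotation named 17709 probe sets, giving 17687 genes, each read from its brightest probe set by the mean of the 4 arrays, and 6642 had no listed symbol. Log2 ratios are shTNFRSF13B minus empty vector within a line, and at least 2-fold was the call, as in the study's methods; with 1 array per condition no p-value or SD is given. Quantile normalization, centring on the array median, loess (span 0.4), averaged probe sets, a filter on dim genes (both arrays under the 95th percentile of olfactory receptor genes) and thresholds of 1.5-fold and 3-fold were alternatives. Members and lists were chosen with earlier results of these data known. Every member could be named, with values on all 4 arrays for up to 5 members per role with the largest ratios in each line and for the 5 that differed least, and up to 3 genes were named per other list. Steps were tested on simulated data. Python 3.11.15, numpy 2.4.6, pandas 2.3.3, scipy 1.17.1, statsmodels 0.14.6 and matplotlib 3.10.9 were used.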

Additional observations from a re-analysis of the deposited data

Results flagged for a closer look

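For 10 members the shTNFRSF13B log2 ratio was at least 2-fold up in 22Rv1 and at least 2-fold down in PC-3 on the deposited and quantile-normalized scales, and the difference between the lines was not tested, since each condition had 1 array. The quantile-normalized 22Rv1 ratio minus the PC-3 ratio was 2.89 for BRCA1, 2.95 for BRIP1, 3.86 for RAD51AP1, 2.85 for XRCC2, 3.95 for XRCC3, 4.005 for RAD54L, 3.05 for FANCB, 2.90 for FANCE, 3.36 for FANCI and 3.27 for POLQ. The median of this difference was 1.86 over the 36 measured members and -0.08 over all genes. FANCE read under the dim-probe level on the PC-3 shTNFRSF13B and 22Rv1 empty vector arrays, and was not called in 22Rv1 under 2 other scalings.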

How the results depend on the processing

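In PC-3 the count of members at least 2-fold lower (15) stayed between 14 and 16 under the other scalings and was 21 at 1.5-fold; at 3-fold it was 6, with 0 members higher and 6 called in opposite directions in the lines. In 22Rv1 the count of members at least 2-fold higher, 35 as deposited, was 17 after quantile normalization, 17 after centring and 17 after loess, and the median log2 ratio of the members, 2.48 as deposited, was 0.97, 0.84 and 0.98 in that order, beside medians over all genes of 1.22 as deposited and -0.06, -0.42 and -0.01. The count called in opposite directions, 15 as deposited, was 10 under each of the 3, with 9 members shared: FANCE fell short of 2-fold in 22Rv1 after centring (0.56) and loess (0.98), where BLM (1.13, centring) or UBE2T (1.26, loess) was called instead. In 22Rv1 the direction turned for PALB2 (-0.16, -0.094 and -0.16), FANCF (-0.15, -0.14 and -0.15) and MSH6 (-0.43, -0.28 and -0.42) in the same order, for PMS2 (-0.80, -0.86 and -0.78) and, after centring alone, for RAD50 (-0.25). The scaling alone makes these shifts, since the 22Rv1 empty vector array has the lower median; no 22Rv1 comparison can be made without that array. Averaged probe sets and the dim-gene filter could not change a member, since each had 1 probe set and none was dim on both arrays of a line. No paired analysis was possible because each condition had 1 array. Dim probes limit what FANCE and FANCG can show.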
